A study of Mus musculus with 2 samples.

Results

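The 41 genes described here make the machinery that copies DNA in S phase, from the licensing of origins to the packaging of the new strands. They were listed by symbol, by a rule that uses no measured value, but the list was chosen with earlier results of these data known. All 41 were among the 25828 features of both count tables. The list holds 7 minichromosome maintenance (MCM) helicase genes, 3 genes of origin licensing and its control, 5 genes whose products complete the active helicase, 6 clamp and clamp loader genes, 6 polymerase and primase genes, 4 genes for flap removal, ligation and single-strand binding, 5 genes of nucleotide supply, 4 genes of chromatin assembly and histone mRNA, and the transcription factor gene E2f1. Each gene was followed from Pax7-positive barcodes, through barcodes rich in Myog, to barcodes rich in Acta1.

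Droplet single-cell RNA sequencing had been done on 2 clones of induced myogenic progenitor cells (iMPCs), which resemble muscle progenitors and had been made from embryonic fibroblasts of the mouse. Both clones had the genotype Tg:Pax7-nGFP/C57BL6;DBA2, in which a nuclear green fluorescent protein reports Pax7, and both had been made with 4 transfections of synthetic MyoD-mRNA in iMPC medium with B18R, a viral protein that captures interferon. One clone, F/R/C, grew throughout in Forskolin, RepSox and CHIR, which raise cyclic AMP, block the TGF-β receptor and activate Wnt signalling. The other, F/R/C+CP, grew in those molecules plus CP, an inhibitor of JAK kinases. Each group is thus 1 clone and 1 library, myotubes and debris had been strained out before loading, and a difference between the treatments cannot be told apart from one between clones or libraries.

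Before S phase, Cdc6 and Cdt1 load the MCM helicase on origins, and geminin (Gmnn) blocks reloading once replication has started. Cdc45 and the GINS complex join MCM to form the running helicase, primase and DNA polymerase α start each strand, and the clamp Pcna, placed by replication factor C, holds the later polymerases on the template. In muscle, differentiation goes along with withdrawal from the cell cycle: satellite cells and myoblasts can divide, whereas cells that express myogenin (Myog) and then sarcomere genes such as Acta1, the skeletal α-actin gene, stop copying their DNA. E2F factors, held back by the retinoblastoma protein in cells that have left the cycle, drive many replication genes.

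Because E2F factors act at the promoters of such genes, the stretches just before the transcription start were read for the letters of E2F sites. RefSeq promoters of the mouse build GRCm38.p6 were matched for 33 of the 41 members. The spellings searched were TTCCCGC, then also TTCGCGC, besides these TTGCCGC, and as the last TTGGCGC, on either strand and with overlaps counted. At least 1 of them was found in the 250 bases before the start of 14 of the 33 members (42.4%). The same letters were in 7.97% of 27025 gene promoters and in 17.5% of the 7446 promoters with 60% GC or more, so the share was also higher than among GC-rich promoters. The CCAAT box was in 60.6% of the members and 34.5% of all promoters, the GC box GGGCGG in 63.6% and 32.9%, and the cell cycle homology letters TTTGAA in 12.1% and 16.3%. Of GC-rich promoters 77.0% held the GC box, more than the members. The CCAAT box was in 29.6% of them and TTTGAA in 4.35%, both less than in the members. A match is a description of the letters only.

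The promoters of 6 genes are shown, each as the 170 bases before the start in the direction of transcription, with the E2F letters in capitals. The first 5 hold 1 to 4 matches and belong to a pair of helicase subunits, the catalytic subunit of polymerase α, a chromatin assembly subunit and the gene Uhrf1. Pola2, which encodes the second subunit of polymerase α and was the member least reduced in Acta1-high barcodes, is shown because it has no match in this window. Strongly reduced members could lack a match too. Of the 5 with the most negative mean there, among those at 20 CPM or more in Pax7-positive barcodes, Uhrf1 had a match and Mcm3 and Lig1 had none. Pole and Mcm4 were not among the 33. A relation between matches and reduction was not tested. They lie at chr8:75109339-75109508 (Mcm5, plus strand), chr1:128359706-128359875 (Mcm6, minus strand), chrX:93632156-93632325 (Pola1, minus strand), chr17:56040246-56040415 (Chaf1a, plus strand), chr17:56303167-56303336 (Uhrf1, plus strand) and chr19:5964207-5964376 (Pola2, minus strand).
Mcm5: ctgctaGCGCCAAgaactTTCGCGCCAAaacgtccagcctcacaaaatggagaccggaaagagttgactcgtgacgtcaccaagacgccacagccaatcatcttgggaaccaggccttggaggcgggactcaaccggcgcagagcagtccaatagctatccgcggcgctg
Mcm6: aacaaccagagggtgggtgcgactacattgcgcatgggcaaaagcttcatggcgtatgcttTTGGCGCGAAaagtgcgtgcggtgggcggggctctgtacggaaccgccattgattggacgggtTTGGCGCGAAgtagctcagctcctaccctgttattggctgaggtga
Pola1: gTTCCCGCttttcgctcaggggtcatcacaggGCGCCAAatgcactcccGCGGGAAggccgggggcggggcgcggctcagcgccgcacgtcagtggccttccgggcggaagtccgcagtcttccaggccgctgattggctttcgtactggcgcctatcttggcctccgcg
Chaf1a: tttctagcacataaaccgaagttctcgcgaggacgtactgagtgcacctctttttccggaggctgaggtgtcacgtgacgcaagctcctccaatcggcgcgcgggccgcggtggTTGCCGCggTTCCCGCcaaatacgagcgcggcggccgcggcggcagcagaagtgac
Uhrf1: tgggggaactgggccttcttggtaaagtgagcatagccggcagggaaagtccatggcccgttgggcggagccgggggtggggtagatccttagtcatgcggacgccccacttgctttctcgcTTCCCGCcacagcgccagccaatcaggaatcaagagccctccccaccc
Pola2: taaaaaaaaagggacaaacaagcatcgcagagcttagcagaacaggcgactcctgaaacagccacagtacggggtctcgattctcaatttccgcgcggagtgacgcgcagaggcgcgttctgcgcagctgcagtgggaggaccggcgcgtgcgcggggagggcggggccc

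The barcodes were sorted into classes by Pax7, Myog and Acta1 alone, so none of the 41 genes chose its own class. A barcode was kept with 250 or more detected genes, no more than 4000 under F/R/C or 7000 under F/R/C+CP, a mitochondrial percentage up to 15 and a ribosomal protein percentage up to 40. Acta1-high barcodes had an Acta1 share at or above the 90th percentile of their library, Myog-high barcodes the same for Myog outside the Acta1-high class, each with at least 3 unique molecular identifiers (UMIs) of the gene, and Pax7-positive barcodes held at least 1 Pax7 UMI and were in neither class. There were 1846 Pax7-positive, 262 Myog-high and 397 Acta1-high barcodes among 3962 kept in the F/R/C library, and 6110, 907 and 1084 among 10834 in the F/R/C+CP library. These classes are ranges and not types: 558 barcodes of the F/R/C and 1612 of the F/R/C+CP library lay within a factor of 2 below the Myog limit of 2335 and 1766 CPM (UMIs of the gene for every 1000000 UMIs), and 172 and 561 did so below the Acta1 limit of 5636 and 9686 CPM.

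The genes that set the classes followed them by definition, over a background that differed between the libraries. Pax7, the satellite cell transcription factor, stood at 309 CPM in Pax7-positive barcodes and at 4.04 and 8.10 CPM in Myog-high and Acta1-high barcodes of the F/R/C library, and at 156, 4.83 and 6.47 CPM under F/R/C+CP. Acta1 stood at 126 CPM in F/R/C Pax7-positive barcodes but at 1059 CPM in those of F/R/C+CP, where every barcode held an Acta1 UMI. Muscle markers, 7 in all, summed to 32959 and 50409 CPM in Acta1-high barcodes. The 7 satellite cell markers, Pax7 among them, summed to 1026, 315 and 420 CPM in Pax7-positive, Myog-high and Acta1-high barcodes under F/R/C. Under F/R/C+CP they summed to 439, 218 and 343 CPM, so the list was lowest in Myog-high barcodes of both libraries. The 6 committed markers, Myog among them, summed to 253, 4417 and 2950 CPM under F/R/C, and to 438, 3582 and 1935 CPM under F/R/C+CP. Summed levels of 4 immune and of 4 endothelial markers were at most 4.75 CPM in any class, with Ptprc at 0 in all 3 F/R/C classes, and the 5 connective tissue markers summed to 256 and 139.9 CPM in Pax7-positive barcodes and to 11.1 to 14.7 CPM in the other classes. The 5 smooth muscle or pericyte markers summed to 341, 1161 and 1007 CPM in Pax7-positive, Myog-high and Acta1-high barcodes under F/R/C, and to 430.2, 1266 and 669 CPM under F/R/C+CP. The 5 melanocyte markers summed to at most 23.5 CPM, in F/R/C+CP Pax7-positive barcodes, with Tyrp1 and Dct at 0 in all F/R/C classes. Whether the deposited F/R/C+CP counts had been corrected for free RNA is not known, which leaves its background and the clone differences uncertain. The part of free RNA and of connective, smooth muscle and pericyte cells in the values below was not tested. The F/R/C library held 36999292 UMIs in 5541 barcodes (500 to 33660 each) and the F/R/C+CP library 313078984 in 12000 barcodes (12097 to 141319 each), and 11 kept barcode sequences were in both. The 95% intervals below are exact and cover counting error only. With 1 library per group no test was possible and no p-value is given.

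Replication genes were high in Pax7-positive barcodes, lower in Myog-high barcodes and lowest in Acta1-high barcodes of both clones. The 41 members together made up 2865 CPM of Pax7-positive, 852 CPM of Myog-high and 262 CPM of Acta1-high counts in the F/R/C library. In the F/R/C+CP library they made up 2454, 619 and 299 CPM. Per barcode this was a mean of 21.9, 6.43 and 1.96 member UMIs under F/R/C, and of 55.96, 15.8 and 12.8 UMIs under F/R/C+CP, where depth also rose with class, with medians of 20913.5, 24175 and 40946 UMIs. Median depth was nearly flat under F/R/C, at 7521, 7649 and 7913 UMIs, while the median mitochondrial percentage was 7.62, 9.54 and 11.3.

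Between Pax7-positive and Acta1-high barcodes, all 41 members were lower in Acta1-high barcodes in both libraries. The median log2 ratio over members was -3.55 (-4.44 to -2.86) under F/R/C, the bounds being the medians of the members' own interval bounds, and -3.46 (-3.64 to -3.26) under F/R/C+CP. All 41 members were at least 2-fold lower under F/R/C and 40 of 41 under F/R/C+CP, the exception being Pola2. Lower levels were common: of all features with at least 10 counts, 39.2% under F/R/C and 39.7% under F/R/C+CP were at least 2-fold lower, and of those at 20 CPM or more in either class 37.1% and 33.8%. The median over all features was -0.68 and -0.64. The members' median thus lay well below that of all features in both libraries. In barcodes of the UMI range common to both libraries, with classes set anew, the medians were -2.78 and -1.95, and the latter was -2.84 with the limits at the 80th percentile.

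**Figure D1:**
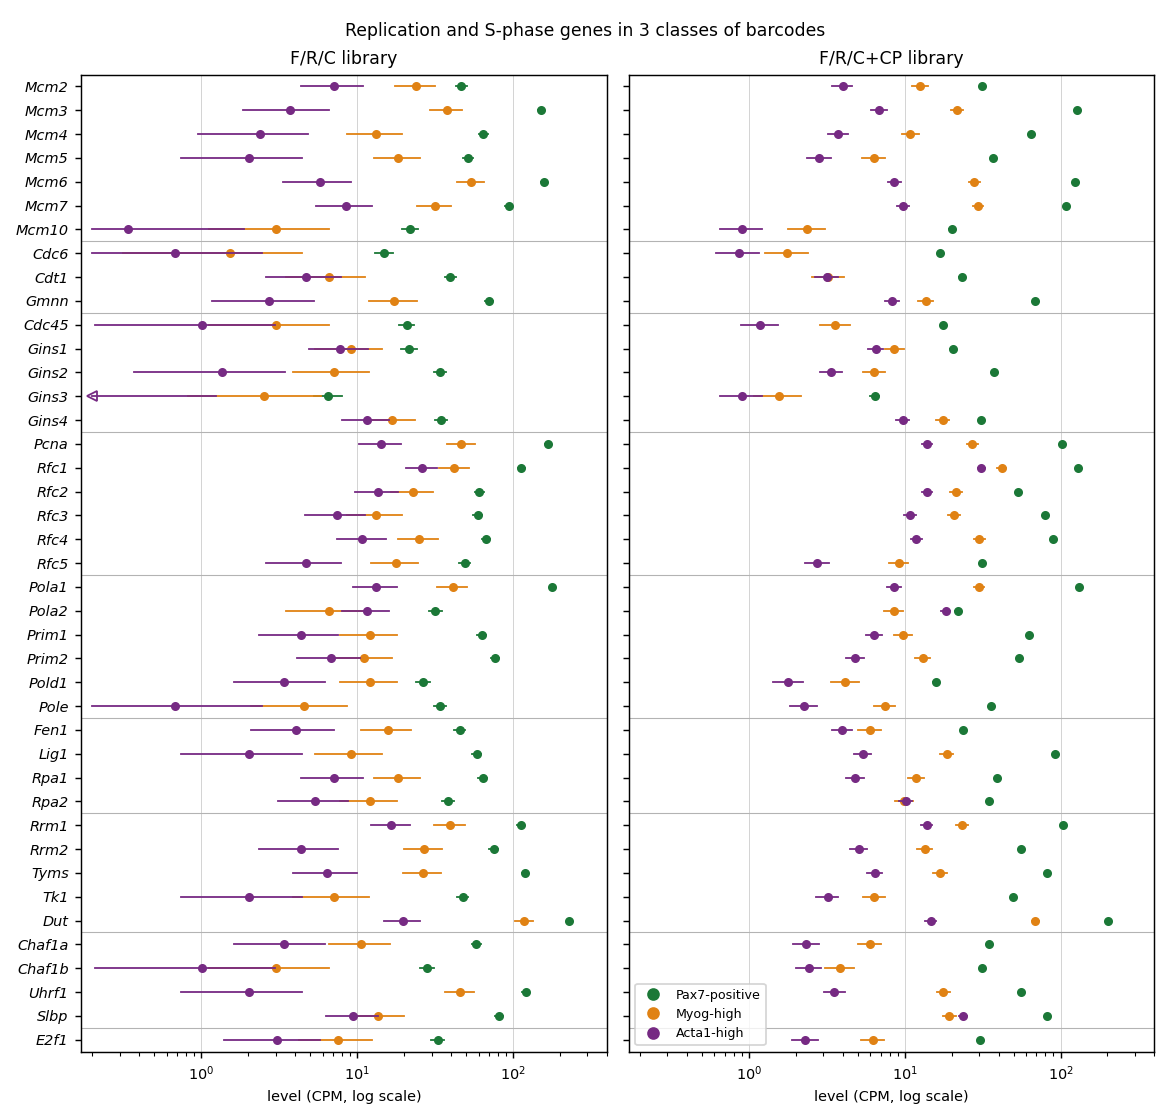
Level of each of the 41 members (CPM, log scale) in Pax7-positive, Myog-high and Acta1-high barcodes of the F/R/C library (left) and the F/R/C+CP library (right), with exact 95% Poisson intervals of counting error as lines and grey lines between groups of related genes. The green Pax7-positive points lie to the right of both other classes for every gene; the open triangle is Gins3 with 0 counts in F/R/C Acta1-high barcodes, and Pola2 and Slbp are the genes whose F/R/C+CP Acta1-high points stand clearly to the right of their Myog-high points.

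Myog-high barcodes, which express the commitment factor and less Acta1 than Acta1-high ones, stood between. Their Acta1 was at 1074 CPM under F/R/C and 2052 CPM under F/R/C+CP, against 126 and 1059 CPM in Pax7-positive barcodes. Myog was at 3099 and 2385 CPM in Myog-high barcodes and still at 1799 and 1052 CPM in Acta1-high ones. All 41 members were lower in Myog-high than in Pax7-positive barcodes in both libraries. The median log2 ratio was -2.02 (-2.46 to -1.48) under F/R/C and -2.07 (-2.26 to -1.93) under F/R/C+CP. At least 2-fold lower were 39 of 41 members under F/R/C, all but Mcm2 and Dut, and 40 of 41 under F/R/C+CP, all but Gins4. Of all features 26.7% and 27.6% were that much lower, and of those at 20 CPM or more 22.0% and 17.9%, with medians over all features of -0.32 and -0.36. The F/R/C value depended on the Myog limit. With the limits at the 80th percentile the F/R/C median was -0.93 and 18 of 41 members were at least 2-fold lower.

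Of the 9 groups of members, the MCM helicase genes kept the smallest share in Acta1-high barcodes. Their summed level went from 588 to 29.7 CPM under F/R/C, 5.05% of the Pax7-positive level, and from 512 to 36.7 CPM under F/R/C+CP, 7.17%. Mcm3, a subunit of the MCM ring, had 151, 37.4 and 3.71 CPM under F/R/C, and 127, 21.5 and 6.85 CPM under F/R/C+CP, for Pax7-positive, Myog-high and Acta1-high barcodes, the order used throughout. Its log2 ratio of Acta1-high over Pax7-positive was -5.35 (-6.35 to -4.51) under F/R/C, from 11 and 2132 counts, and -4.22 (-4.38 to -4.06) under F/R/C+CP. Mcm4, another ring subunit, had 64.6, 13.1 and 2.36 CPM under F/R/C, and 64.3, 10.9 and 3.76 CPM under F/R/C+CP. Its Acta1-high level was 3.66% of the Pax7-positive level under F/R/C and 5.85% under F/R/C+CP. Mcm6, whose promoter is shown above, had 159, 53.6 and 5.74 CPM under F/R/C, and 124, 28.04 and 8.59 CPM under F/R/C+CP. Mcm7 retained the most of Mcm3 to Mcm7 in Acta1-high barcodes, at 9.002% and 9.08%. Mcm5 stood at 3.95% and 7.64%.

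Mcm2 was the helicase gene least reduced at the Myog step. It had 46.6, 23.8 and 7.09 CPM under F/R/C, and 31.3, 12.6 and 3.997 CPM under F/R/C+CP. In Myog-high barcodes it kept 50.99% of its Pax7-positive level under F/R/C and 40.05% under F/R/C+CP, with log2 ratios of -0.97 (-1.43 to -0.54) and -1.32 (-1.50 to -1.15). The F/R/C value was 0.31 in the common UMI range, where that library had 72 Pax7-positive and 16 Myog-high barcodes. Mcm10, which helps to activate the loaded helicase, lay at the other end. It stood at 21.8 and 19.99 CPM in Pax7-positive barcodes, and had 1 count in F/R/C Acta1-high barcodes, a log2 ratio of -6.02 (-11.33 to -3.53), and 42 counts under F/R/C+CP, a log2 ratio of -4.47 (-4.95 to -4.03).

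The 3 licensing genes kept the smallest share of any group in Myog-high barcodes, 20.3% of their summed Pax7-positive level under F/R/C and 17.1% under F/R/C+CP. Cdt1, which brings MCM to origins, had 39.7, 6.57 and 4.72 CPM under F/R/C, and 23.2, 3.24 and 3.16 CPM under F/R/C+CP. Its Myog-high over Pax7-positive log2 ratio was -2.59 (-3.51 to -1.81) under F/R/C and -2.84 (-3.19 to -2.51) under F/R/C+CP, and its level in Acta1-high barcodes was close to that in Myog-high ones, with log2 ratios between them of -0.48 (-1.67 to 0.73) and -0.03 (-0.45 to 0.39). The interval spans 0 in each library. Cdc6, the ATPase that loads MCM with Cdt1, had 3 counts in F/R/C Myog-high barcodes and 41 under F/R/C+CP, with log2 ratios to Pax7-positive of -3.30 (-5.59 to -1.73) and -3.26 (-3.74 to -2.82). Gmnn, the inhibitor of relicensing, stood at 24.5% and 19.8% of its Pax7-positive level in Myog-high barcodes and at 3.84% and 12.02% in Acta1-high ones.

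The genes that complete the running helicase differed among themselves. Gins1 and Gins4, subunits of the 4-part GINS complex, retained the most in Acta1-high barcodes. Gins4 had 34.5, 16.7 and 11.5 CPM under F/R/C, and 30.8, 17.5 and 9.69 CPM under F/R/C+CP. It kept 48.3% and 56.9% of its Pax7-positive level in Myog-high barcodes and 33.2% and 31.5% in Acta1-high ones. Gins1 had 21.5, 9.10 and 7.76 CPM under F/R/C, and 20.3, 8.58 and 6.51 CPM under F/R/C+CP, and its Acta1-high over Pax7-positive log2 ratios were -1.47 (-2.15 to -0.86) and -1.64 (-1.82 to -1.47). Gins2, in contrast, kept 3.95% and 9.03% and Cdc45 4.87% and 6.68%. The intervals of Gins1 and Gins2 do not overlap in either library, although their products sit in the same complex. Gins3 was sparse, with 92 counts in F/R/C Pax7-positive barcodes and 0 in Acta1-high ones, where a floor of 3 counts gives at least a 6.45-fold lower level, and 42 Acta1-high counts under F/R/C+CP, 14.05% of the Pax7-positive level.

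The clamp Pcna had 167, 46.5 and 14.2 CPM under F/R/C, and 102, 27.2 and 13.9 CPM under F/R/C+CP. It kept 27.9% and 26.7% of its Pax7-positive level in Myog-high and 8.50% and 13.6% in Acta1-high barcodes. Of its loader, Rfc1, the large subunit, had 113, 41.96 and 25.98 CPM under F/R/C, and 129.6, 41.8 and 31.1 CPM under F/R/C+CP, and Rfc2 had 60.6, 22.8 and 13.5 CPM under F/R/C, and 53.2, 21.5 and 13.97 CPM under F/R/C+CP. These 2 subunits were among the 5 members with the smallest Acta1-high difference, at log2 ratios of -2.12 (-2.47 to -1.79) and -2.06 (-2.14 to -1.98) for Rfc1 and of -2.17 (-2.66 to -1.71) and -1.93 (-2.05 to -1.81) for Rfc2. Rfc3, Rfc4 and Rfc5 were more reduced, with ratios between -2.64 for Rfc4 under F/R/C and -3.52 for Rfc5 under F/R/C+CP. Rfc1, Rfc2 and the other loader subunits thus spread over more than 2-fold within 1 complex.

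The subunits of polymerase α were split. Its catalytic subunit gene Pola1 had 178, 40.95 and 13.2 CPM under F/R/C, and 131, 29.9 and 8.57 CPM under F/R/C+CP, a log2 ratio of Acta1-high over Pax7-positive of -3.76 (-4.26 to -3.31) and -3.94 (-4.09 to -3.80). Its regulatory subunit gene Pola2 had 31.7, 6.57 and 11.5 CPM under F/R/C, and 21.8, 8.54 and 18.3 CPM under F/R/C+CP, with log2 ratios of -1.47 (-2.01 to -0.96) and -0.26 (-0.37 to -0.15), and 83.7% of its Pax7-positive level was left in F/R/C+CP Acta1-high barcodes. Pola2 was the only member with a higher level in Acta1-high than in Myog-high barcodes in both libraries: 34 against 13 counts under F/R/C, a log2 ratio of 0.80 (-0.16 to 1.85), and 851 against 198 under F/R/C+CP, a log2 ratio of 1.10 (0.87 to 1.33). The F/R/C interval spans 0 and the F/R/C+CP interval does not. The GENCODE M21 annotation gives no other gene on the same strand across Pola2.

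Both primase subunits were low from the Myog step on. Prim1, the catalytic subunit that lays down the RNA primer, had 62.9, 12.1 and 4.39 CPM under F/R/C, and 63.1, 9.79 and 6.34 CPM under F/R/C+CP, and Prim2, which holds it to polymerase α, had 14.6% and 24.01% of its Pax7-positive level in Myog-high barcodes. Pole, the leading-strand polymerase, had 33.9, 4.55 and 0.675 CPM under F/R/C, and 35.6, 7.46 and 2.26 CPM under F/R/C+CP. Its Acta1-high over Pax7-positive log2 ratios were -5.65 (-8.70 to -3.79), from 2 counts, and -3.98 (-4.27 to -3.70), from 105, the second most negative mean of the 36 members at 20 CPM or more in Pax7-positive barcodes of both libraries. Pold1, the catalytic subunit of polymerase δ, kept 12.8% and 11.3%.

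Lagging-strand genes were led by the ligase. Lig1, which seals nicks between Okazaki fragments, had 58.3, 9.10 and 2.02 CPM under F/R/C, and 92.5, 18.7 and 5.39 CPM under F/R/C+CP, with Acta1-high over Pax7-positive log2 ratios of -4.85 (-6.30 to -3.72) and -4.10 (-4.29 to -3.92). Fen1, the nuclease that removes the flap before ligation, kept 8.93% and 16.7% of its Pax7-positive level in Acta1-high barcodes, and Rpa1, the large subunit of the single-strand binding protein, 11.1% and 12.3%. Rpa2, the middle subunit of the same protein, kept 14.1% under F/R/C and 29.4% under F/R/C+CP. In F/R/C+CP its Acta1-high and Myog-high levels were alike, at 10.1 and 9.88 CPM, a log2 ratio of 0.04 (-0.19 to 0.27).

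Nucleotide supply genes were spread out at the Myog step. Tk1, the thymidine kinase of the salvage route, had 47.5, 7.08 and 2.02 CPM under F/R/C, and 49.3, 6.38 and 3.20 CPM under F/R/C+CP, and its Myog-high over Pax7-positive log2 ratios of -2.75 (-3.63 to -1.99) and -2.95 (-3.19 to -2.71) gave the second most negative mean over both libraries of the 36 members. Dut, which removes dUTP and so keeps uracil out of DNA, had 229.7, 118 and 19.6 CPM under F/R/C, and 201, 68.8 and 14.7 CPM under F/R/C+CP. It kept 51.5% and 34.2% in Myog-high barcodes but only 8.52% and 7.30% in Acta1-high ones. Tk1 and Dut, which both serve the thymidine pool, therefore had non-overlapping intervals at the Myog step in each library. Tyms, which makes thymidylate, had 119, 26.3 and 6.41 CPM under F/R/C, and 81.3, 16.9 and 6.42 CPM under F/R/C+CP. Rrm1 and Rrm2 encode the large and small subunits of ribonucleotide reductase. Rrm2 kept 5.85% and 9.16% in Acta1-high barcodes and Rrm1 14.8% and 13.3%.

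Of the chromatin genes, Uhrf1 and Chaf1b reached low levels at different steps. Uhrf1, which brings the maintenance DNA methyltransferase to newly copied DNA, had 120.3, 45.5 and 2.02 CPM under F/R/C, and 55.3, 17.7 and 3.55 CPM under F/R/C+CP. It still kept 37.8% and 31.95% in Myog-high barcodes and then had the most negative mean over both libraries of the 36 members in Acta1-high ones, from log2 ratios of -5.89 (-7.34 to -4.77) and -3.96 (-4.20 to -3.74). Under F/R/C+CP alone Mcm3, Lig1, Mcm4 and Pole were lower than Uhrf1. Chaf1b, a subunit of the chromatin assembly factor, had 28.1, 3.03 and 1.01 CPM under F/R/C, and 31.3, 3.84 and 2.43 CPM under F/R/C+CP, and had the most negative mean over both libraries of the 36 members at the Myog step, from -3.21 (-4.67 to -2.08) and -3.03 (-3.35 to -2.72). Chaf1a, its partner subunit, stood at 18.3% and 17.04% in Myog-high barcodes. E2f1, the E2F factor gene itself, had 32.8, 7.58 and 3.04 CPM under F/R/C, and 30.3, 6.25 and 2.30 CPM under F/R/C+CP, and 9.27% and 7.59% of its Pax7-positive level was left in Acta1-high barcodes.

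Slbp, whose product binds the stem-loop of histone mRNAs, was named here after its values had been seen. It had 81.2, 13.7 and 9.45 CPM under F/R/C, and 81.3, 19.4 and 23.7 CPM under F/R/C+CP. In F/R/C+CP its Acta1-high level was above the Myog-high one, a log2 ratio of 0.29 (0.13 to 0.45), whereas under F/R/C the ratio was -0.53 (-1.35 to 0.29) with an interval that spans 0. Over all members the Acta1-high over Myog-high median was -1.73 (-2.66 to -0.72) under F/R/C, where 36 members had the 10 counts required, and -1.22 (-1.57 to -0.81) under F/R/C+CP. The medians over all features were -0.28 and -0.19. With the 5 members under that minimum counted too, 38 of 41 members were lower in Acta1-high than in Myog-high barcodes in both libraries, 1 was higher in both (Pola2) and 2 were lower under F/R/C and higher under F/R/C+CP (Slbp and Rpa2). The share of all features lower in both libraries is not given, so this count is not set against other genes.

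**Figure D2:**
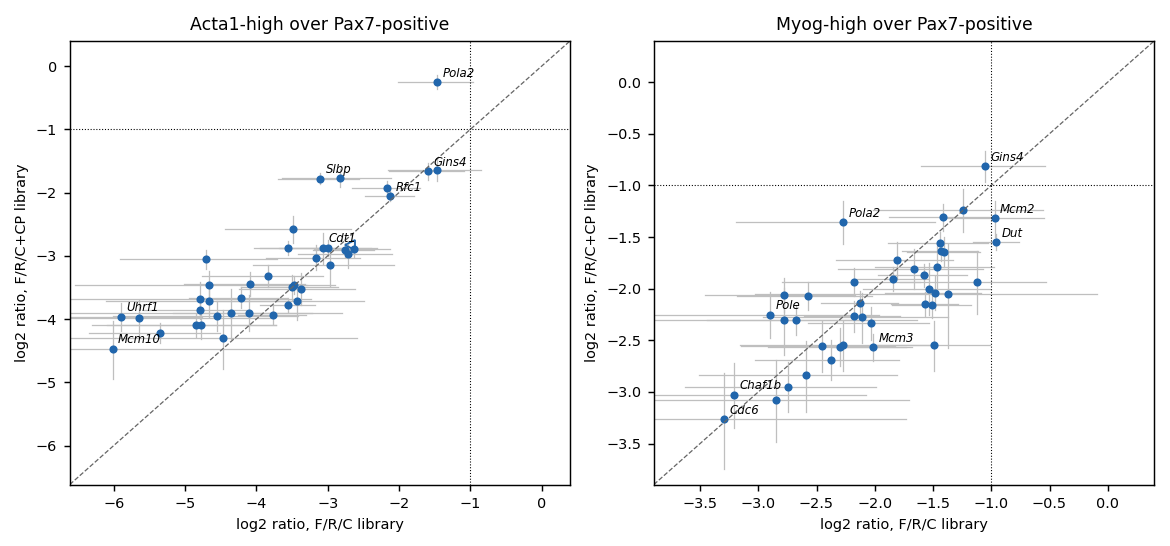
Log2 ratio of each member's level in Acta1-high (left) and Myog-high (right) over Pax7-positive barcodes, with the F/R/C library on the x axis, the F/R/C+CP library on the y axis, exact 95% intervals in grey, the dashed line of equal ratios and dotted lines at a 2-fold lower level. All 41 points lie below 0 on both axes, the open triangle is the bound for Gins3, and Pola2 stands alone above the dotted line for F/R/C+CP on the left.

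Members that kept more in 1 clone also tended to keep more in the other. Across the 41 genes the Acta1-high over Pax7-positive log2 ratios of both libraries had a Pearson r of 0.84 and a Spearman rho of 0.85, and the Myog-high ones an r and rho of 0.76. The genes of 1 library share its barcodes and totals and are not independent, so no p is given. The share left in Acta1-high barcodes also differed between members within a library: apart from Gins3, which had 0 counts there under F/R/C, it ran from 1.54% for Mcm10, on 1 count, to 36.2% for Pola2 under F/R/C, and with Gins3 included from 4.51% to 83.7% for the same genes under F/R/C+CP. The members' counts were therefore not in the same ratio to each other in Acta1-high and Pax7-positive barcodes.

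The classes were then divided further to see where along commitment the difference lay. Among Pax7-positive barcodes, those with a Myog UMI below the Myog limit had nearly as much replication RNA as those with none: 2806 against 2886 CPM under F/R/C and 2444 against 2532 CPM under F/R/C+CP, which is 97.2% and 96.5%. A Myog UMI was found in 23.7% and 86.3% of Pax7-positive barcodes. Those with it were also deeper, at medians of 8219.5 against 7302.5 UMIs under F/R/C and 21321 against 18564 under F/R/C+CP. The part of depth and of free RNA in this split was not tested. Myog-high barcodes without a Pax7 UMI had 839 and 599 CPM, 29.1% and 23.7% of the first step. The few Myog-high barcodes that still held a Pax7 UMI, 7 under F/R/C and 73 under F/R/C+CP, had 1243 (984 to 1549) and 811 (774 to 850) CPM. Acta1-high barcodes with Myog at or above its limit had 226 and 253 CPM, 7.84% and 9.99%, and those with lower Myog 278 and 307 CPM, 9.62% and 12.1%. Among these steps, the largest difference between neighbouring ones in CPM thus lay between the Pax7-positive barcodes with a little Myog and the Myog-high ones. As a ratio, this was so under F/R/C+CP only. Under F/R/C the ratio was larger between Myog-high barcodes without Pax7, at 839 CPM, and Acta1-high ones with high Myog, at 226 CPM. The steps leave out the kept barcodes in none of the classes, 1457 under F/R/C and 2733 under F/R/C+CP. Their Myog was at 749 and 692 CPM. Myog itself went from 445 to 3036 CPM under F/R/C, and from 238 to 2220 CPM under F/R/C+CP, between the second and the third step. The place of the largest difference therefore depends on how the steps were cut.

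**Figure D3:**
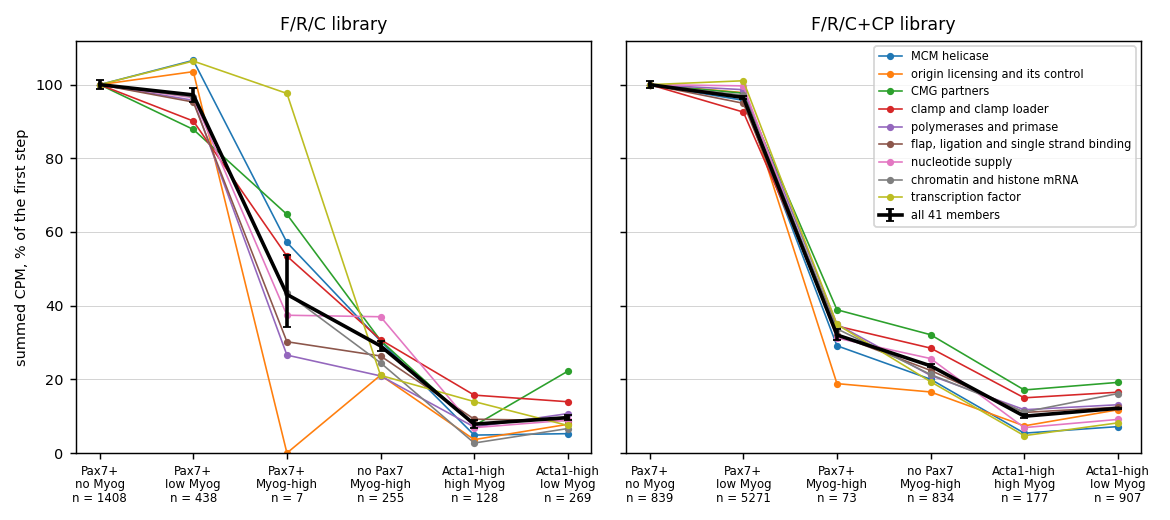
Summed level of each group of members as a percentage of its level in Pax7-positive barcodes without a Myog UMI, over 6 steps from Pax7-positive to Acta1-high, with the number of barcodes under each step; the black line is all 41 members with 95% Poisson intervals of the level at each step. The black line stays at 97.2% and 96.5% at the next step and ends at 9.62% and 12.1%; the F/R/C step with 7 barcodes is the noisiest.

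Graded by Myog itself outside the Acta1-high class, replication RNA was lower in each higher bin of Myog. In F/R/C, barcodes below the 60th percentile of Myog held 2862 CPM of members, those at the 60th to 70th 2459, the 70th to 80th 2042, the 80th to 90th 1556, the 90th to 95th 960.4 and the top 5% 725 CPM. In F/R/C+CP, the lowest 50% held 2571 CPM, and the next bins 2345, 1653, 1359, 957, 718 and 519.7 CPM. The 95% intervals of neighbouring bins do not overlap in either library. The 311 F/R/C barcodes between the 80th and 90th percentile had Myog at 1931 CPM and Pax7 at 11.4 CPM and 1653 CPM of 15 mitosis genes, against 2506 CPM in the lowest bin. The matching 836 F/R/C+CP barcodes had 881 CPM of mitosis genes against 2272 CPM. Cdkn1c, the CDK inhibitor p57, was at 5873 against 2009 CPM in these F/R/C bins and at 7708 against 1805 CPM under F/R/C+CP.

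Along Acta1 the largest difference between neighbouring bins lay at the 80th percentile. F/R/C barcodes in the lower 50% of Acta1 held 2783 CPM of members, the next bins 2717, 2483 and 2014 CPM up to the 80th percentile, and then 641 CPM between the 80th and 90th, 254 between the 90th and 95th and 272 CPM in the top 5%. F/R/C+CP barcodes held 2386, 2121, 1916, 1593, 606, 313 and 285 CPM in the same bins. The intervals overlap between the 2 lowest and between the 2 highest F/R/C bins, and between no neighbouring F/R/C+CP bins. In the bin between the 80th and 90th percentile, Acta1 stood at 2836 and 5664 CPM, Cdkn1a, the CDK inhibitor p21, at 1539 and 1293 CPM, and Pax7 at 17.98 and 23.1 CPM. Low replication RNA was thus found below the limit that defined the Acta1-high class.

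To see how many barcodes held replication RNA, each was thinned to 2000 UMIs, which all barcodes of the F/R/C+CP classes and 1818 of 1846, 239 of 262 and 342 of 397 of the F/R/C classes reached. At least 5 member UMIs were found in 1003 of 1818 F/R/C Pax7-positive barcodes, 55.2% (52.9 to 57.5), in 18 of 239 Myog-high barcodes, 7.53% (4.52 to 11.6), and in 2 of 342 Acta1-high ones, 0.585% (0.0709 to 2.10). In F/R/C+CP the shares were 46.8% (45.6 to 48.1), 4.85% (3.55 to 6.46) and 0.646% (0.260 to 1.33). The median barcode held 5, 1 and 0 member UMIs under F/R/C and 4, 1 and 0 under F/R/C+CP. Acta1-high barcodes, the class in which replication is not expected from textbook knowledge, give the level at which free RNA and stray counts cannot be told apart from expression. The unthinned shares were 90.6%, 37.8% and 8.56% under F/R/C and 99.2%, 85.6% and 86.3% under F/R/C+CP, at the median depths given above.

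The Myog-high class was mixed: while 38.5% of its thinned F/R/C barcodes and 45.1% of its F/R/C+CP barcodes held no member UMI, the highest held 13 in each library. Of the 18 and 44 Myog-high barcodes with at least 5 member UMIs, 14 and 33 also held at least 3 UMIs of the 15 mitosis genes. The same was so for 630 of 1003 and 1592 of 2862 such Pax7-positive barcodes, and for 0 of 2 and 0 of 7 such Acta1-high barcodes. The variance of the member UMIs over barcodes was 2.38 and 2.39 times their mean in Pax7-positive barcodes, 2.49 and 2.42 times in Myog-high and 1.43 and 1.35 times in Acta1-high ones. A pure counting spread would give a ratio of 1 at equal levels. Among single genes, Mcm3 was seen in 23.6% of thinned F/R/C Pax7-positive, 5.86% of Myog-high and 0.292% of Acta1-high barcodes, and in 22.6%, 2.76% and 0.830% under F/R/C+CP. Scrublet top scores marked 4.93%, 0.763% and 3.02% of the 3 F/R/C classes and 11.3%, 4.52% and 8.67% of the F/R/C+CP classes. Without these barcodes the Acta1-high medians were -3.64 and -3.78 and the Myog-high medians -2.06 and -2.21.

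**Figure D4:**
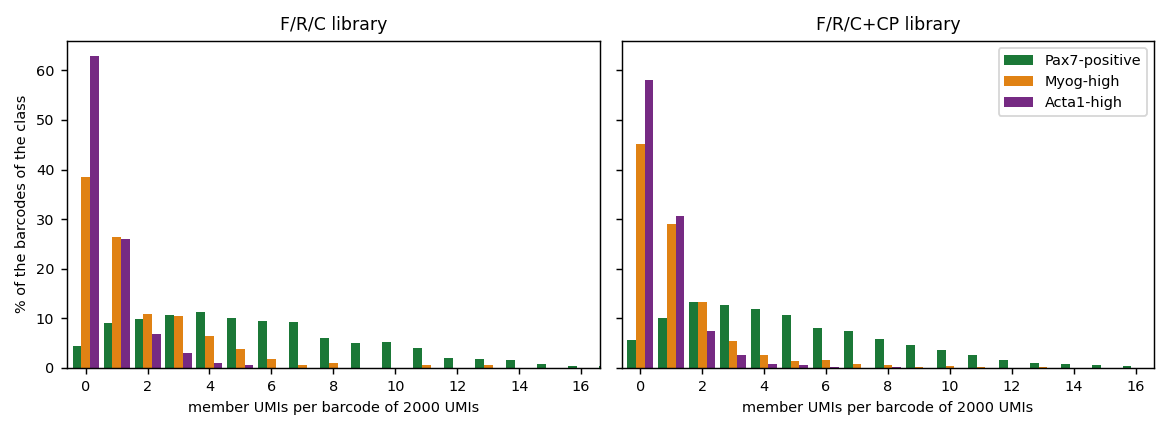
Share of the barcodes of each class (y axis, percent) that held a given number of member UMIs (x axis) after thinning to 2000 UMIs, in the F/R/C (left) and F/R/C+CP library (right). The Acta1-high bars stand mostly at 0 and 1, with 62.9% and 58.1% of barcodes at 0, and the Pax7-positive bars spread to well above 10.

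Within the Pax7-positive class the members varied together. Barcodes were ranked by the summed share of Mcm2 to Mcm7 and cut into 4 equal parts, and the other 35 members, which took no part in the ranking, were summed in each. They made up 1484, 1995, 2390 and 3214 CPM from the lowest to the highest part under F/R/C, and 1007, 1639, 2152 and 3039 CPM under F/R/C+CP. All 35 were higher in the highest than in the lowest part in both libraries, with median log2 ratios of 1.35 and 1.65 against -0.02 and -0.05 over all features other than Mcm2 to Mcm7. At least 2-fold higher were 22 of the 35 under F/R/C and 34 under F/R/C+CP, and 3.87% and 3.84% of those features. Median depth was 6607 UMIs in the lowest and 7916 in the highest F/R/C part, and 19494.5 and 21115 under F/R/C+CP. The extreme was Cdc6 at 31.6 against 2.18 CPM under F/R/C, and 42.2 against 2.46 CPM under F/R/C+CP. Pcna stood at 258 against 83.2 CPM and at 179.9 against 40.4 CPM.

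Mitosis genes did not follow the helicase. Their summed level was 2575, 3109, 2933 and 1924 CPM from the lowest to the highest part under F/R/C and 2119, 2760, 2297 and 1350.3 CPM under F/R/C+CP, lowest in both where the helicase genes were highest. Ccnb1, cyclin B1, stood at 106 CPM in the lowest and 53.96 CPM in the highest F/R/C part, and at 91.98 and 41.02 CPM under F/R/C+CP. Pax7 differed little over the parts, at 316 and 291 CPM in the lowest and highest under F/R/C and at 160.02 and 149 CPM under F/R/C+CP. Cdkn1a was lower where the helicase was high, at 363 and 277 CPM under F/R/C and 528 and 237 CPM under F/R/C+CP. Cdkn1c was at 1552 and 2824 CPM under F/R/C but at 2423 and 2389.6 CPM under F/R/C+CP. Barcodes with the most helicase RNA under F/R/C therefore also had the most Cdkn1c, and this was not so under F/R/C+CP.

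**Figure D5:**
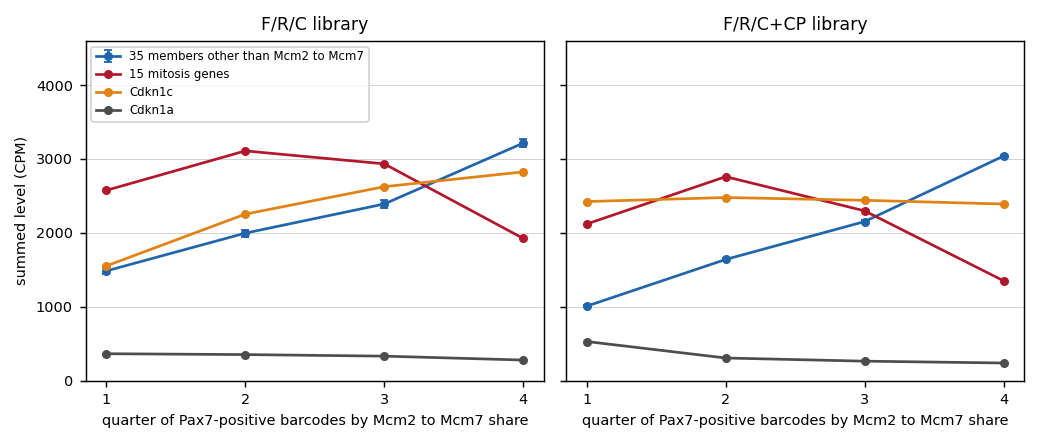
Summed level (CPM) of the 35 members other than Mcm2 to Mcm7, of 15 mitosis genes, and the level of Cdkn1c and Cdkn1a, in 4 equal parts of the Pax7-positive barcodes ranked by their Mcm2 to Mcm7 share, for F/R/C (left) and F/R/C+CP (right); the bars on the blue points are 95% Poisson intervals. The blue line goes up from 1484 to 3214 CPM and from 1007 to 3039 CPM while the mitosis line is lowest in the last part.

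Between the clones, replication RNA in Pax7-positive barcodes differed far less than between the classes. The median log2 ratio of the clone with CP over the other was -0.17 (-0.30 to -0.03), with 29 members lower and 12 higher. A single member, Uhrf1, was at least 2-fold lower and none was 2-fold higher, against 13.5% of all features at least 2-fold lower and 12.1% higher, and a median of -0.11 over all features. Uhrf1 stood at 120.3 CPM under F/R/C and 55.3 CPM under F/R/C+CP, a log2 ratio of -1.12 (-1.20 to -1.04). Among Pax7-positive barcodes with low Acta1 and Myog, an alternative added after seeing the data, its log2 ratio was -0.93 and no member was 2-fold lower. It was also lower in F/R/C+CP Myog-high barcodes, at 45.5 and 17.7 CPM, whereas in Acta1-high ones, where F/R/C had 6 counts, the log2 ratio of 0.81 (-0.34 to 2.28) has an interval that spans 0. Fen1 followed at a log2 ratio of -0.93 (-1.05 to -0.80) and Cdt1 at -0.78 (-0.91 to -0.64).

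Lig1 had the highest ratio of the 36 members, at 92.5 against 58.3 CPM in Pax7-positive barcodes, a log2 ratio of 0.66 (0.56 to 0.77). It was higher under F/R/C+CP in the other classes too, with log2 ratios of 1.04 (0.36 to 1.81) in Myog-high and 1.41 (0.27 to 2.87) in Acta1-high barcodes. Lig1 and Fen1, which act one after the other in joining Okazaki fragments, thus differed between the clones in opposite directions. Rfc3 and Rfc4 came next, at 0.41 (0.31 to 0.51) and 0.40 (0.31 to 0.50), while Rfc5, of the same loader, was at -0.63 (-0.75 to -0.51) and the clamp Pcna at -0.71 (-0.77 to -0.64). The summed level of the helicase group was 588 CPM without and 512 CPM with CP, and that of the chromatin group 288 and 203 CPM. Over all kept barcodes the members' median was -0.33 (-0.43 to -0.24), which is not set against all features here. In the UMI range common to both libraries the medians turned to 0.020 in Pax7-positive and 0.39 in all kept barcodes, so no direction of the clone difference is given for the members as a whole.

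In Acta1-high barcodes the F/R/C+CP library held more of some members and less of others. The following were named after their values had been seen. Slbp stood at 23.7 against 9.45 CPM, a log2 ratio of 1.33 (0.79 to 1.92), Gmnn at 8.29 against 2.70 CPM and Pola2 at 18.3 against 11.5 CPM. These barcodes were also the deepest, with a median of 40946 UMIs against 7913, and the part of depth and of doublets in this was not tested. The interval lay above 0 for Slbp, Gmnn, Pola2, Mcm3, Lig1 and Rpa2. It lay below 0 for Mcm2 at -0.83 (-1.48 to -0.10), Pola1 at -0.62 (-1.09 to -0.10) and Dut at -0.42 (-0.80 to -0.0025). No share of all features is given beside these, so they are not set against other genes.

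A further 52 replication genes outside the list were read in the same way. In Acta1-high barcodes 50 of 52 were lower than in Pax7-positive ones under F/R/C and 51 of 52 under F/R/C+CP, 42 and 44 of them at least 2-fold, with medians of -3.37 (-4.37 to -2.37) and -2.90 (-3.05 to -2.68). Clspn, which relays the S-phase checkpoint, stood at 65.5 and 58.5 CPM in Pax7-positive and at 1.35 and 3.48 CPM in Acta1-high barcodes. Pclaf, a partner of Pcna, stood at 269.8 and 239 CPM and at 11.5 and 12.2 CPM in the same classes. E2f8, which encodes a repressive E2F, was higher in both libraries, at log2 ratios of 0.76 (0.39 to 1.12) and 0.53 (0.42 to 0.65). E2f7, of the same family, went the other way in both libraries. It had 42.7, 2.02 and 1.35 CPM under F/R/C, from 602, 4 and 4 counts. Under F/R/C+CP it had 2.03 and 1.20 CPM in Myog-high and Acta1-high barcodes, from 47 and 56 counts. Top1, the topoisomerase that also serves transcription, was higher under F/R/C at 0.42 (0.32 to 0.53) and lower under F/R/C+CP at -0.14 (-0.17 to -0.12). In Myog-high barcodes Top1 was at 1.52 (1.43 to 1.61) and 1.63 (1.61 to 1.65) relative to Pax7-positive ones.

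Of the origin recognition subunits, Orc1 and Orc6, at -3.55 (-4.04 to -3.09) and -2.73 (-2.84 to -2.63) under F/R/C+CP, were among the lower ones in Acta1-high barcodes, while Orc2 and Orc4 were at -0.58 (-0.64 to -0.52) and -0.46 (-0.54 to -0.38). The same order held under F/R/C, at -3.50, -2.70, -0.71 and -0.51. The small polymerase subunits Pold4 and Pole4 were at -0.35 (-0.58 to -0.12) and -0.85 (-1.17 to -0.54) under F/R/C and at -0.10 (-0.18 to -0.03) and -0.10 (-0.16 to -0.03) under F/R/C+CP. These subunits therefore stood apart from their catalytic partners Pold1 and Pole, described above.

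The 15 mitosis genes were lower still in Acta1-high barcodes, with medians of -4.84 (-5.68 to -3.83) and -4.14 (-4.36 to -3.86), all 15 at least 2-fold lower in each library. In Myog-high barcodes their medians were -1.40 under F/R/C and -1.92 under F/R/C+CP, against -2.02 and -2.07 for the 41 members. The difference between the lists was not tested. Mki67, a marker of cycling cells, had 251, 50.1 and 5.40 CPM under F/R/C, and 227, 30.5 and 6.94 CPM under F/R/C+CP.

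Among genes of cell cycle exit, Cdkn1a had the opposite order. It stood at 329, 1012 and 2134 CPM under F/R/C and at 331, 772 and 1879.9 CPM under F/R/C+CP. Cdkn1c was highest in Myog-high barcodes, at 6556 CPM against 2339 and 1763 CPM in Pax7-positive and Acta1-high ones of F/R/C, and at 9343 against 2433 and 2495 CPM under F/R/C+CP. Rb1, the retinoblastoma gene, was also highest in Myog-high barcodes, at 239 and 226 CPM against 48.6 and 57.3 CPM in Pax7-positive ones. Of the 9 genes of this list, 5 were higher and 4 lower in F/R/C Myog-high than in Pax7-positive barcodes, and 4 higher and 5 lower in those of F/R/C+CP. Among the lower ones under F/R/C were Cdkn2a, Cdkn2c and Cdkn2d. Their log2 ratios were -1.62 (-1.80 to -1.44), -0.82 (-1.43 to -0.27) and -1.05 (-1.64 to -0.52).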

How the data were processed

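The deposited values were whole-number UMI counts for each gene in each barcode, made by the authors with Cell Ranger 7.0.0 on GRCm39. STARsolo and Seurat 4.2.1 are named too in the submitters' processing notes. The study describes a correction for free RNA in the F/R/C+CP sample, and the deposited counts of both libraries were whole numbers, so whether the deposited counts are the corrected ones could not be settled. The members, lists and tests were chosen with earlier results of these data known. The rules on classes are in the report.

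Counts were summed over the barcodes of a class and divided by the class total (CPM). Ratios were taken for features with at least 10 counts, with 0 counts set to 3. With 1 library per group no test across samples was run. Intervals are exact at 95% (Poisson for levels, conditional binomial for ratios, Clopper-Pearson for shares) and were tested on simulated data; they cover counting error only. Named genes were the 5 members at each end of the mean ratio over both libraries (3 between the clones) among 36 at 20 CPM or more in Pax7-positive barcodes of both, and other genes are named to describe their group, those of the wider lists after their values were seen. Scrublet in scanpy 1.11.5 called 4 and 299 doublets, none of which was removed. An alternative left out the top 176 and 1040 scores, which is 0.8% for each 1000 barcodes. Other alternatives changed the percentile, depth, filters and totals. numpy 2.4.6, scipy 1.17.1 and pandas 2.3.3 were used.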

Additional observations from a re-analysis of the deposited data

Results flagged for a closer look

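Barcodes left out of the comparisons for having too many detected genes also held replication RNA. The 142 such F/R/C barcodes stood at 2776 CPM of the 41 members (2707 to 2847), against 2224 CPM in kept barcodes, and at 4038 CPM of the 15 mitosis genes against 1932. The 355 such F/R/C+CP barcodes stood at 1370.1 CPM (1355 to 1385), against 1702 CPM in kept barcodes. They were singled out because they carry a signal outside the main comparisons, and the part of doublets in them was not tested. Barcodes over the mitochondrial limit, 1390 and 662 in number, stood at 514 and 529 CPM.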

How the results depend on the processing

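The Acta1-high and Myog-high medians kept their direction under every alternative run. With the limits at the 80th percentile the Acta1-high median was -2.84 under F/R/C+CP, and the Myog-high medians were -0.93, with 18 members at least 2-fold lower, and -1.55. At the 95th percentile the Myog-high median under F/R/C+CP was -2.46. Barcodes thinned to 2000 UMIs gave -1.44 for Myog-high under F/R/C, -0.24 between the clones over all kept barcodes, and 3 members at least 2-fold lower between the Pax7-positive barcodes of the clones. In the UMI range common to both libraries, which left 72, 16 and 19 F/R/C barcodes in the 3 classes, the Acta1-high medians were -2.78 and -1.95 and the Myog-high median under F/R/C+CP -1.91. The clone medians were reversed there, at 0.020 in Pax7-positive and 0.39 in all kept barcodes, with 2 members at least 2-fold lower, and Mcm2 in Myog-high F/R/C barcodes was at 0.31. The Acta1-high median under F/R/C+CP was -3.24 without the upper limit on genes, -3.22 over all deposited barcodes, -3.78 without the top doublet scores, and -3.26 with totals that left out sarcomere and mitochondrial counts. The clone median over all deposited barcodes was -0.24. An alternative chosen after seeing the data took Pax7-positive barcodes with low Acta1 and Myog only, and gave -2.28 for Myog-high under F/R/C+CP and 0 members at least 2-fold lower between the clones. Single genes moved more than the medians. In the common UMI range the Acta1-high ratios under F/R/C were -1.87 for Mcm4, -1.98 for Lig1, -2.84 for Pole, -3.31 for Uhrf1, -0.55 for Gins1 and -0.27 for Gins4, and the Myog-high ones -2.37 for Gins4, -2.56 for Rfc2, -1.61 for Chaf1b and Pole, -1.77 for Tk1 and -0.45 for Dut. Under F/R/C+CP the Acta1-high ratios were -1.87 for Pole, -2.29 for Mcm3, -2.21 for Lig1, -2.39 for Mcm4, -2.35 for Uhrf1, -0.53 for Pola2 and -0.92 for Gins1. Thinned barcodes gave Myog-high ratios under F/R/C of -0.07 for Gins1 and -0.27 for Gins4, and the 80th percentile gave -1.40 for Chaf1b, -1.20 for Tk1 and -0.26 for Dut. The causes were not tested. No share of all features is given beside the counts of members under these alternatives, so they are not set against other genes. No paired analysis was possible because each group is 1 library, and no replicate could be left out. Single members of the F/R/C Acta1-high class rest on 0 to 77 counts.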
